A study of Mus musculus with 46 samples.

Results

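The 29 genes described here encode the enzymes of cholesterol synthesis from acetyl-CoA to cholesterol, the proteins that sense sterols and control that pathway, and a few that carry cholesterol within or into cells. They were chosen by name, as a list of known pathway genes drawn up with earlier results of these data known, and all 29 were found among the 55416 Ensembl genes counted in each of 46 mouse livers. Of them, 28 had enough reads to be tested. Npc1l1, which takes up sterols across cell membranes, had 22 counts over all 46 libraries and was not tested.

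In all livers except those of the last experiment, the mice came from the strain Plvaptm1.1Salm-Tg(Lrat-cre)1Rshw on C57BL/6JBomTac, and littermates served as controls. Lrat-Cre drives recombination in the stellate cells of the liver, which store vitamin A, so that the Plvap knockout was aimed at a minority of liver cells while whole livers were sequenced. Plvap encodes a protein of the diaphragms of fenestrae and caveolae. All mice were male, and their age is not given in the sources used here. On chow, 6 controls and 5 knockouts had fasted for 12 h. Another 4 controls and 4 knockouts, also on chow, had fasted for 10 h and been refed for 2 h. After 6 weeks on a western diet with fructose in the drinking water there were 5 controls and 4 knockouts, and after 6 weeks on a high-fat diet 5 controls and 5 knockouts, both fasted for 12 h. The last experiment set 4 livers of whole-body Cav1 knockouts (STOCK Cav1tm1Mls/J) against 4 of C57BL/6N wild types. These mice were on chow and had fasted for 6 h, and genotype and stock differed together. Caveolin, the product of Cav1, forms the coat of caveolae.

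As background, Srebf2 encodes SREBP2, a membrane-bound transcription factor of the endoplasmic reticulum. When membrane sterols are low, Scap escorts it to the Golgi, where proteases release its active part, and it then raises transcription of nearly every enzyme of the pathway. When sterols are plentiful, Insig proteins hold Scap and SREBP2 back. In liver this loop is known for lowering cholesterol synthesis when cholesterol arrives with the diet, and for raising it after a meal. The cholesterol content of the diets is not given in the sources used here.

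SREBP2 is known to bind sterol response elements next to sites for NF-Y, which reads CCAAT, and for Sp1, which reads GC-rich boxes. RefSeq promoter sequences (GRCm38.p6, an earlier build than that of the count tables) were found for 23 of the 29 members. The 200 bases before the transcription start are shown for 6 of them, 5′ to 3′ on the gene's strand, in lower case with CCAAT on either strand (read as ATTGG on the other) and the sterol response element core TCACNCCAC in capitals. Msmo1 (chr8:64733579-64733778, minus strand), Cyp51 (chr5:4104698-4104897, minus strand), Mvk (chr5:114444069-114444268, plus strand) and Idi1 (chr13:8885406-8885605, plus strand) had the 4 smallest p-values between the diets in controls among members with a promoter entry. Hmgcs1 (chr13:119690151-119690350, plus strand) was the only member with an entry that matched the core. Ggps1 (chr13:14063489-14063688, minus strand) differed little between the diets in controls.
Msmo1: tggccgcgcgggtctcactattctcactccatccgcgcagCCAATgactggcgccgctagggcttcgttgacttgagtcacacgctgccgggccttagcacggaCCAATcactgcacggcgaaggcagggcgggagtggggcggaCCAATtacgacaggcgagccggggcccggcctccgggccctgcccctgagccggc
Cyp51: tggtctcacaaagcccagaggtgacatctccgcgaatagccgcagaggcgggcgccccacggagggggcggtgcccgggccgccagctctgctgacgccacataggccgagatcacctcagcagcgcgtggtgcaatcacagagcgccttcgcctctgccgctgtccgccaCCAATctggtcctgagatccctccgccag
Mvk: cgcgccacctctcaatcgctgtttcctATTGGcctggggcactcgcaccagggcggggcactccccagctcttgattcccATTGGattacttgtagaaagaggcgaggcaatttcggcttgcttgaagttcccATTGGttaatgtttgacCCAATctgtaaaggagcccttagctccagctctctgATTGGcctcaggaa
Idi1: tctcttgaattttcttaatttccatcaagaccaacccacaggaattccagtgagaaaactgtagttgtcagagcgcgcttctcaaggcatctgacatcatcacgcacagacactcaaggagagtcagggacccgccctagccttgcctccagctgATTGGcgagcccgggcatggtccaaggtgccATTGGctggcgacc
Hmgcs1: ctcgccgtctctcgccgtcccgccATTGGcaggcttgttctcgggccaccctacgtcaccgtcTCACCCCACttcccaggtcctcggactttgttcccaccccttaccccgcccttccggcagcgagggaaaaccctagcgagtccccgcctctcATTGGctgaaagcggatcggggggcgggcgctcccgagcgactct
Ggps1: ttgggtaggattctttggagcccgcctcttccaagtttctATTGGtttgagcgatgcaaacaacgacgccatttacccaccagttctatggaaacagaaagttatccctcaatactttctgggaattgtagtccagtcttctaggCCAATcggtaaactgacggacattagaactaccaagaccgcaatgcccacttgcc

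The core in Hmgcs1 read TCACCCCAC and began 137 bases before the start. It was found in 1 of 28 member promoters of 300 bases (3.57%), where 250 bases lie before the start and 50 after it, and in 1.24% of all 32851 promoters in the table, searched on both strands. CCAAT was found in 21 of the 28 member promoters (75.0%), against 37.4% of all promoters. The GC box GGGCGG was also found in 21 of the 28 (75.0%), against 35.7% of all. Counted by gene, where any 1 promoter of a gene is enough, 41.1% of all genes held CCAAT and 38.2% the GC box. All 13 members with a promoter entry that were lower on western than on high-fat diet in controls held both. Of the 10 other members, 8 held CCAAT and 6 the GC box. Counted by promoter, the lower members had CCAAT in 13 of 15 and the GC box in 14 of 15. Ggps1, with 2 CCAAT matches in the stretch shown, had no GC box there. These matches describe letters in a window and do not show binding.

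Libraries held 6656342 to 23311539 counts, and values below are CPM, reads of a gene scaled to library size, after TMM normalization over all 46 libraries. The targeted genes followed their labels. Mean Plvap fell to between 17.8% and 25.3% of control in the knockouts of the 4 Plvap experiments, and mean Cav1 to 16.5% of wild type in the Cav1 knockouts. Hepatocyte markers were present in every group, and no pair of libraries within a group held the same values. Each library is labelled as a separate sample of its group, and p-values measure only the spread between these samples, part of which may be technical. In whole livers, fewer cells of a type and less RNA per cell cannot be told apart.

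Livers on western diet had the lowest sterol gene expression of the study. The CPM of the 28 tested members summed to 1117 ± 54.9 (SD, n = 5) in western controls and 1220 ± 196 (SD, n = 4) in western knockouts. High-fat livers summed to 1817 ± 252 (SD, n = 5) in controls and 1777 ± 440 (SD, n = 5) in knockouts, and fasted chow livers to 1801 ± 334 (SD, n = 6) and 1965 ± 479 (SD, n = 5). Refed livers had the highest means of the Plvap strain, at 2825 ± 592 (SD, n = 4) in controls and 3444 ± 677 (SD, n = 4) in knockouts. The Cav1 experiment stood at 3265 ± 369 (SD, n = 4) in wild types and 3672 ± 618 (SD, n = 4) in knockouts. Western controls, at 1174 or less, lay below every liver of the other groups except the western knockouts, whose liver B at 1513 reached into the chow and high-fat ranges. The chow and high-fat groups overlapped one another, and so did the refed groups and those of the Cav1 experiment. Single refed livers also reached into the chow and high-fat ranges. Refed control A at 2084 and refed knockout D at 2470 lay below chow knockout A at 2485 and high-fat knockout E at 2552. Each of the 4 experiments was counted in its own table, the diets sharing one, so levels across tables are descriptions and table and condition cannot be told apart.

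**Figure D1:**
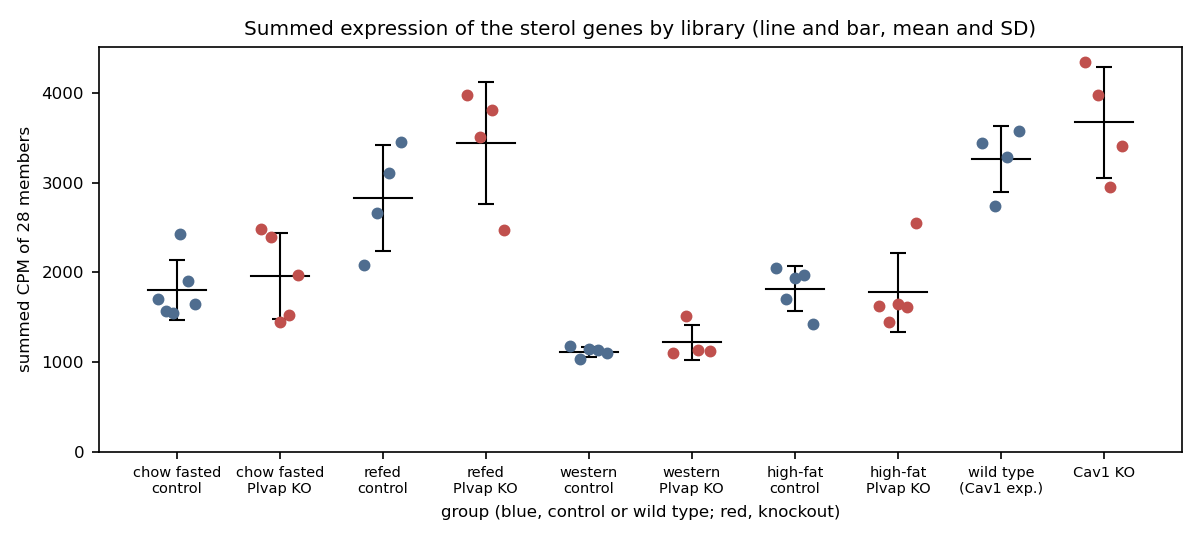
Summed CPM of the 28 tested sterol genes (y axis) in each of 46 livers, by group (x axis); points are libraries, blue for controls or wild types and red for knockouts, and lines with bars are mean and SD. The 9 western livers lie between 1032 and 1513, and 1 high-fat knockout library at 2552 stands above the other 4, which lie between 1450 and 1647.

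Among the 8 groups of the Plvap strain, western controls had the lowest mean of 16 of the 28 members and western knockouts of 9, while refed knockouts had the highest mean of 22. Against fasted chow controls, 22 of 28 members lay lower in every western control liver without overlap, where 1.41% of the 12551 genes tested in all Plvap tables did so, and the median member stood at 0.476 of the chow mean. The lowest ratios were those of Idi1 at 0.0659, Sqle at 0.0950 and Msmo1 at 0.131. High-fat controls stood near chow, with a median ratio of 1.01, no member above chow without overlap (background 3.24%) and 1 below it (background 4.66%). Refed controls lay above chow for 10 members without overlap (background 17.8%) and below it for 1, Ggps1 (background 18.3%). Mvd, the decarboxylase that makes isopentenyl diphosphate, had the largest refed ratio at 11.2, followed by Idi1 at 5.82, Sqle at 4.54 and Lss at 4.11. These ratios carry no test.

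**Figure D2:**
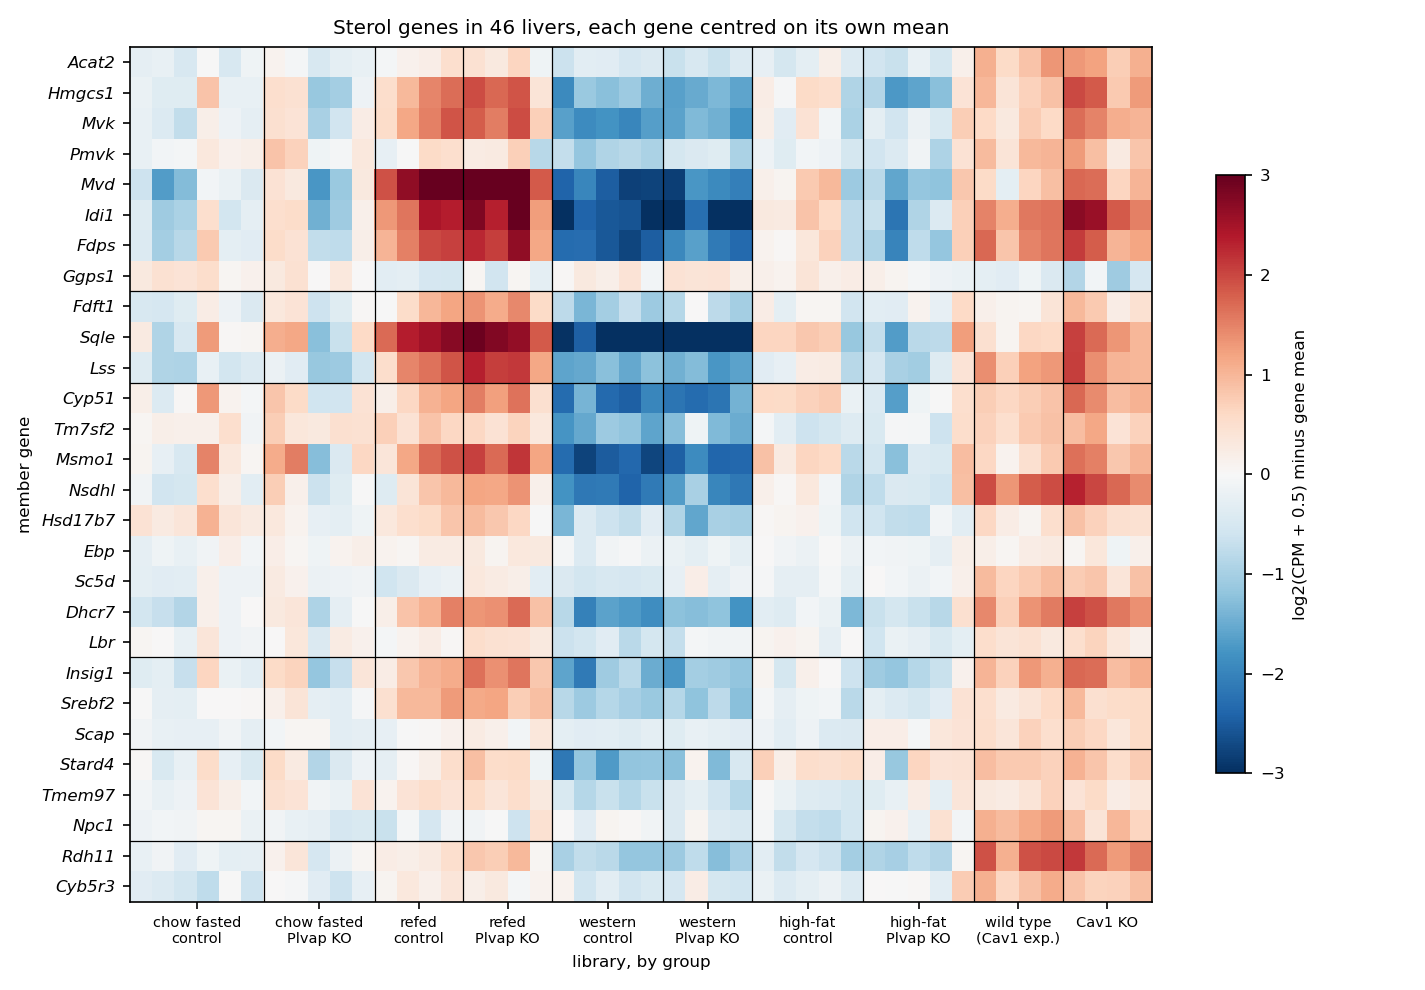
Expression of the 28 tested members (rows, ordered by role and divided by lines) in 46 livers (columns, by group), as log2(CPM + 0.5) minus the gene's mean over all livers, with colours clipped at 3 in either direction. Most rows are blue in the 9 western livers and red in the refed livers and the Cav1 experiment, while Ebp, Scap and Ggps1 change little.

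Western against high-fat diet had the most members called of the comparisons made, and both diets were counted in 1 table. In controls, 17 of the 28 members were lower on western diet and none was higher (edgeR quasi-likelihood test, Benjamini-Hochberg adjusted p under 0.05 over 13533 genes). Of all genes tested, 0.99% were lower and 1.1% higher. The median log2 difference of the members was -0.98, against 0.0047 over all genes, and 27 of 28 differences were below 0. All western livers lay below all high-fat livers for 18 of the 28 members (background 2.11%). The called members took in 5 of 8 genes of the mevalonate and isoprenoid steps, all 3 from squalene to lanosterol, 6 of 9 from lanosterol to cholesterol, 2 of 3 sensing genes and 1 of 3 tested transport genes, but neither accessory gene.

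Among the early steps, Mvk phosphorylates mevalonate and lies at chr5:114582330-114598652 (GRCm39, plus strand). It stood at 3.23, 2.65, 2.86, 2.49 and 3.18 CPM in western controls A to E and at 12.7, 8.64, 15.2, 10.5 and 5.48 CPM in high-fat controls A to E. The lowest high-fat liver, E, was still above every western liver. The log2 difference was -1.86 ± 0.27 (SE), with an adjusted p of 0.00051.

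Mvd lies at chr8:123160340-123170161 (GRCm39, minus strand). It stood at 1.12, 1.71, 1.05, 0.737 and 0.760 CPM in the western controls and at 9.0, 8.55, 14.2, 16.4 and 3.53 CPM in the high-fat controls. The groups did not overlap, and the log2 difference was -3.24 ± 0.53 (SE; adjusted p = 0.0029).

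Idi1, the isomerase that supplies the starter unit for chain building, lies at chr13:8935537-8942487 (GRCm39, plus strand) and was nearly silent on western diet. The western controls held 0, 5, 4, 3 and 1 reads of it, or 0, 0.389, 0.301, 0.276 and 0.0691 CPM. The high-fat controls held 64, 109, 106, 45 and 25 reads, or 5.23, 5.09, 7.92, 6.54 and 2.21 CPM. The mean on western diet was thus 3.84% of that on high-fat diet. Its log2 difference of -4.73 ± 0.71 (SE; adjusted p = 0.0013) was the largest fall among the members, though its size rests on few reads in the western livers.

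Fdps, which joins isoprene units into farnesyl diphosphate, lies at chr3:89000895-89009266 (GRCm39, minus strand). Western controls held 2.30, 2.33, 1.88, 1.57 and 2.00 CPM and high-fat controls 14.4, 13.6, 17.1, 22 and 7.51 CPM, without overlap. The log2 difference was -2.87 ± 0.43 (SE; adjusted p = 0.0015). Fdps shares 1124 exon bases with genes on its own strand, which have 0.498% of its counts. Hmgcs1, the HMG-CoA synthase whose promoter holds the sterol response element core, was also lower, by a log2 difference of -1.51 ± 0.36 (SE; adjusted p = 0.038), from 127 ± 43.8 CPM (SD, n = 5) on high-fat to 45.0 ± 9.61 CPM (SD, n = 5) on western diet. The other 3 early genes were not called. Pmvk, the next kinase after Mvk, had no overlap between the groups and a log2 difference of -0.68 (adjusted p = 0.071). Acat2, a thiolase at the entry of the pathway, had -0.20, and Ggps1, which leads into the geranylgeranyl branch away from sterols, had -0.04. Ggps1 shares 257 exon bases with Arid4b on the other strand, which has 281% of its counts, so its level is uncertain too.

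Sqle, the squalene epoxidase, fell most steeply of the middle steps. It lies at chr15:59186926-59203041 (GRCm39, plus strand). Western controls stood at 3.10, 4.67, 2.71, 2.39 and 2.35 CPM and high-fat controls at 43.3, 43.3, 48.8, 46.4 and 12.4 CPM. High-fat control E was far below its group and still more than any western liver. The mean on western diet was 7.84% of that on high-fat diet, and the log2 difference was -3.68 ± 0.54 (SE; adjusted p = 0.0017). Lss, which closes the sterol rings, had a log2 difference of -1.34 (adjusted p = 0.0062). Fdft1, the squalene synthase, had -0.91 (adjusted p = 0.036). Fdft1 shares 774 exon bases with Ctsb on the other strand, and Ctsb holds 699% of its counts, so without knowledge of the counting strand its level is uncertain.

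Of the late steps, Msmo1, a methylsterol oxidase at chr8:65171173-65186826 (GRCm39, minus strand), had the smallest p of all members. Western controls stood at 14.2, 10.2, 12.4, 13.8 and 10.2 CPM and high-fat controls at 133, 86.6, 113, 110 and 41.2 CPM. The groups were far apart, and the western livers hardly differed among themselves. The log2 difference was -3.0 ± 0.37 (SE; adjusted p = 0.000397).

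Cyp51, the lanosterol demethylase at chr5:4131145-4154746 (GRCm39, minus strand), stood at 17.9, 34.3, 17.4, 16 and 23 CPM in western controls and at 137, 135, 146, 155 and 78.7 CPM in high-fat controls. The log2 difference was -2.59 ± 0.33 (SE; adjusted p = 0.000445), without overlap. Akap9, on the other strand, shares 166 exon bases with it and has 27.7% of its counts.

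Nsdhl, a dehydrogenase of sterol demethylation at chrX:71962163-72002120 (GRCm39, plus strand), stood at 4.84, 3.66, 3.69, 2.95 and 3.73 CPM in western controls and at 20.0, 18.3, 22.3, 16.7 and 9.28 CPM in high-fat controls. The log2 difference was -2.20 ± 0.34 (SE; adjusted p = 0.0017), again without overlap. Dhcr7, which makes cholesterol in the final reduction, had -1.17 (adjusted p = 0.046), with overlap through western control A at 17.7 CPM. The sterol reductases Tm7sf2 and Lbr had -1.06 (adjusted p = 0.033) and -0.65 (adjusted p = 0.028), the former sharing 532 exon bases with Vps51 on its own strand. Hsd17b7, Ebp and Sc5d were not called. Ebp, the sterol isomerase, stood at 145 ± 14.3 CPM (SD, n = 5) on western and 151 ± 9.77 CPM (SD, n = 5) on high-fat diet, and its log2 difference was -0.07 ± 0.10 (SE). Sc5d, the sterol desaturase, had a log2 difference of -0.31 (adjusted p = 0.11) without overlap.

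Of the control genes, Insig1 was lower on western diet by a log2 difference of -1.22 (adjusted p = 0.023) and Srebf2 by -0.74 (adjusted p = 0.026), while the escort Scap stood at 81.3 ± 2.02 CPM (SD, n = 5) against 83.5 ± 7.74 CPM (SD, n = 5), a log2 difference of -0.05. Stard4, which carries sterols through the cytosol, was lower by -1.95 ± 0.32 (SE; adjusted p = 0.0031). Tmem97, a sterol-responsive membrane protein, had -0.41 (adjusted p = 0.17). Npc1, which exports cholesterol from lysosomes, was the only tested member with a difference above 0, at 0.44 (adjusted p = 0.13). It shares 601 exon bases with neighbouring genes. The accessory genes Rdh11 and Cyb5r3 had -0.36 and -0.05 and were not called.

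The size of the count rested partly on single livers. It was 10 without western control E or without high-fat control C, 11 without high-fat control D, and 15 without high-fat control E, the liver that was lowest of its group for 22 of 28 members. In every one of the 18 alternatives run, 10 members remained called: Cyp51, Fdps, Idi1, Lss, Msmo1, Mvd, Mvk, Nsdhl, Sqle and Stard4.

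In the Plvap knockouts the same diet comparison called 14 of 28 members lower on western diet and none higher, where 4.01% of all genes were lower and 4.43% higher. The median log2 difference was -0.71 (all genes -0.04), and 11 members lay lower on western diet without overlap (background 5.41%). Ggps1 alone lay higher without overlap, as did 1019 of 13533 genes, and was not called. Of the 17 members called in controls, 12 (70.6%) were among the 14 called in knockouts, of which they made up 85.7%. Mvk had the smallest p, with 3.34, 4.15, 3.79 and 2.84 CPM in western knockouts A to D and 8.99, 7.29, 9.79, 7.97 and 18.8 CPM in high-fat knockouts A to E. Its log2 difference was -1.60 ± 0.28 (SE; adjusted p = 0.0064).

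Msmo1 in knockouts stood at 12.8, 19.3, 13.4 and 13.6 CPM on western and at 49.4, 29.8, 54.7, 52.4 and 137 CPM on high-fat diet, with a log2 difference of -2.14 ± 0.39 (SE; adjusted p = 0.0094). High-fat knockout E was far above the other 4. Sqle stood at 3.04, 3.06, 2.53 and 2.54 CPM on western and at 16.6, 8.24, 15.5, 15.8 and 66.5 CPM on high-fat diet, with a log2 difference of -3.17 ± 0.59 (SE; adjusted p = 0.0095). Without overlap again, the western livers were all near the same low level. Idi1 had a log2 difference of -4.21 ± 0.81 (SE; adjusted p = 0.0094), from 7, 27, 31, 45 and 128 reads across the high-fat knockouts to 0, 1, 1 and 7 reads across the western knockouts. The western reads came chiefly from knockout B.

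Cyp51 in knockouts stood at 19.2, 17.8, 19.4 and 33.7 CPM on western and at 67.7, 28.6, 82.9, 90.1 and 128 CPM on high-fat diet. Here the groups overlapped, and the log2 difference was -1.83 ± 0.35 (SE; adjusted p = 0.01). Srebf2 stood at 23.1, 17.9, 24.3 and 17.4 CPM on western and at 34.1, 31.7, 29.2, 33.2 and 56.9 CPM on high-fat diet, without overlap, at a log2 difference of -0.86 ± 0.18 (SE; adjusted p = 0.013). Nsdhl stood at 5.27, 8.84, 4.26 and 3.68 CPM on western and at 10.4, 13.2, 12.8, 11.7 and 33.6 CPM on high-fat diet, also without overlap (log2 difference -1.59 ± 0.35 (SE), adjusted p = 0.015). Each of these 3 had its highest value in high-fat knockout E. The other called members, Lss, Fdps, Mvd, Tmem97, Dhcr7 and Tm7sf2, had log2 differences from -1.87 for Mvd to -0.52 for Tmem97.

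Scap was called in knockouts and not in controls. It stood at 79.5, 87.5, 83.1 and 80.2 CPM in western knockouts and at 117, 118, 97.4, 129 and 135 CPM in high-fat knockouts, without overlap, a log2 difference of -0.55 ± 0.10 (SE; adjusted p = 0.0064). The knockout high-fat livers were the ones that stood apart, since western livers of both genotypes and high-fat controls lay between 75.7 and 92.0 CPM.

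High-fat knockout E had the highest value of its group for 23 of the 28 members. Without it 9 members were called lower in knockouts. The count was also 9 without western knockout A and 7 without western knockout C or D. Over the 17 alternatives run, 7 members remained called in each: Cyp51, Idi1, Msmo1, Mvk, Scap, Sqle and Srebf2.

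**Figure D3:**
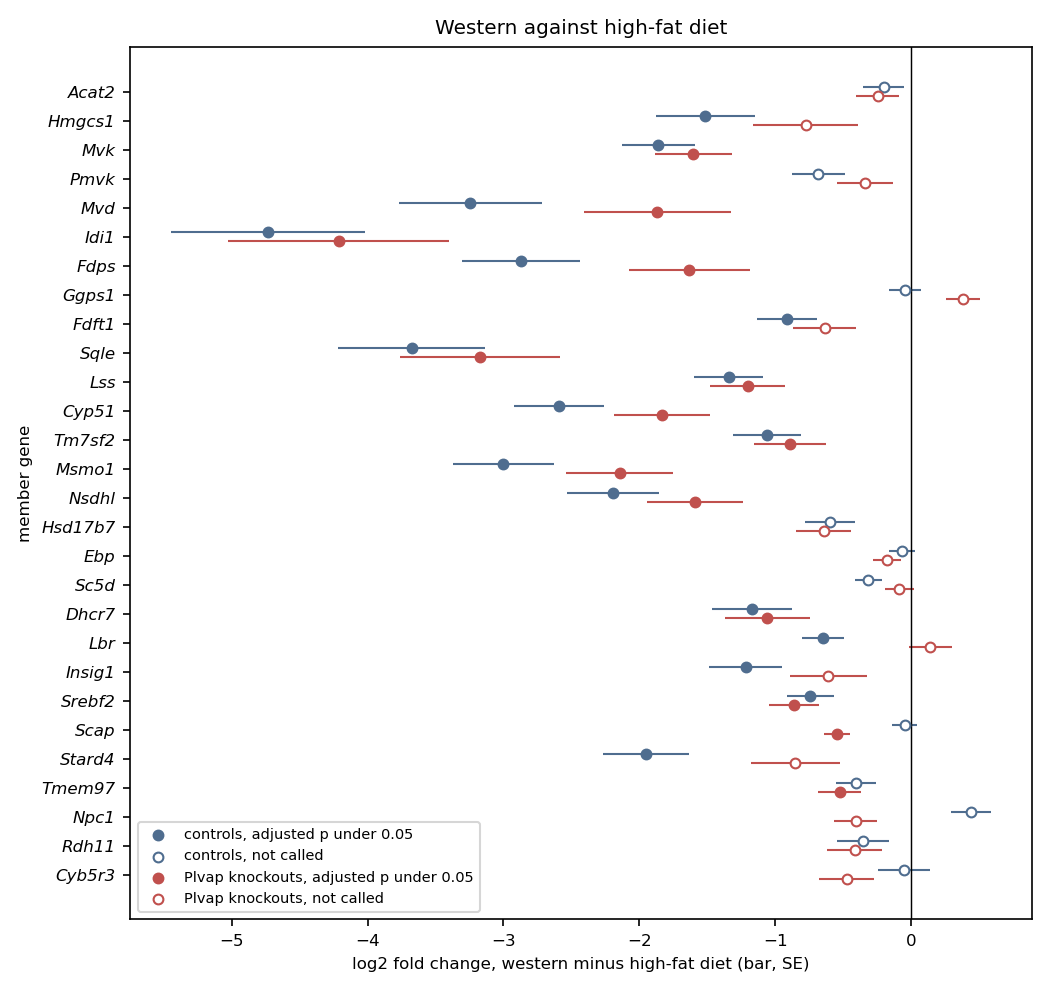
Log2 fold change of western minus high-fat diet (x axis, bars are SE) for each of the 28 tested members (y axis, by role), in controls (blue) and Plvap knockouts (red); filled points passed an adjusted p under 0.05. In controls 17 members and in knockouts 14 are filled, all to the left of 0, with Idi1 and Sqle farthest out.

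Whether the diet difference depended on genotype was tested directly as an interaction. No member was called, and no gene among the 13533 (0.0% called; edgeR). At an unadjusted p under 0.05 there were 5 members, against 11.4% of all genes, and DESeq2 called 1 member, Scap, among 56 genes (0.454%). The 3 members with the smallest p did not pass: Npc1 (interaction on the log2 scale -0.85 ± 0.22 (SE), adjusted p = 0.2), Scap (-0.50 ± 0.13 (SE), adjusted p = 0.23) and Lbr (0.79 ± 0.22 (SE), adjusted p = 0.25). The largest interaction estimates above 0 had wide standard errors: Mvd (1.37 ± 0.76), Fdps (1.24 ± 0.61) and Stard4 (1.10 ± 0.45). None of them passed, and what size of difference could have been detected was not tested.

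**Figure D4:**
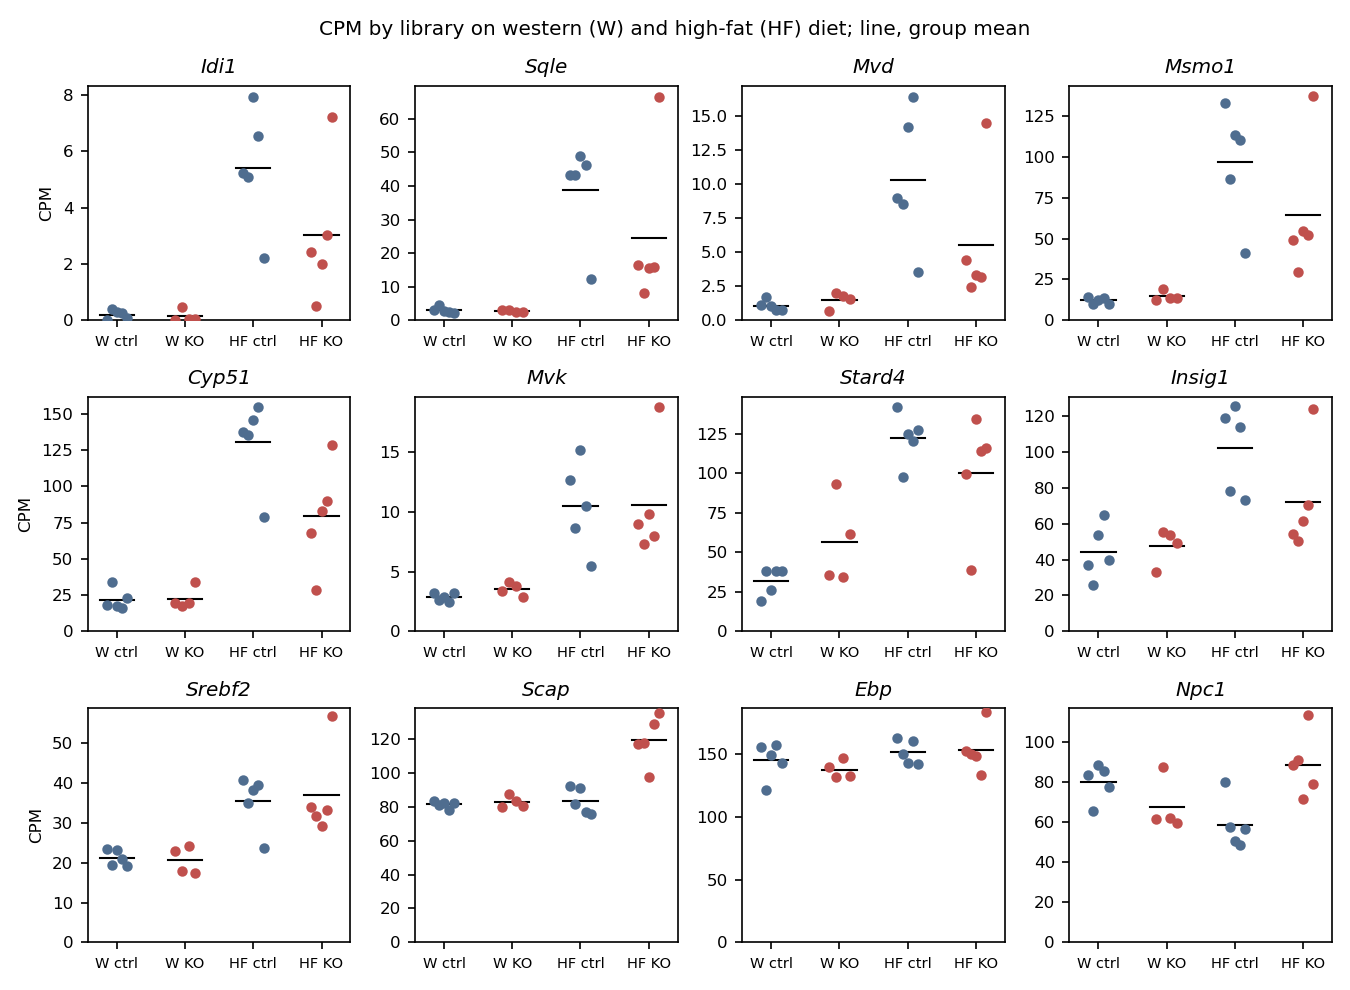
CPM (y axis, from 0) of 12 members in each western (W) and high-fat (HF) liver, controls in blue and Plvap knockouts in red, with lines at group means. Idi1, Sqle, Mvd, Msmo1, Cyp51 and Mvk lie low in all 9 western livers, Scap is raised in high-fat knockouts, and Ebp stays level.

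Marker lists of liver and other cell types moved between the diets as well. The summed CPM of 5 endothelial markers ran from 98.4 to 127.5 in western controls and from 132.7 to 152.8 in high-fat controls, with 1 of the 5 called lower on western diet. The enterocyte list, with 1 of 4 genes tested and Alpi without a count in either group, was higher on western diet, at 391 to 913 CPM against 219 to 343 CPM. The pancreas list, with 1 of 3 genes tested and Pnlip and Prss2 without a count in either group, was lower, at 12.4 to 22.5 CPM against 33.2 to 49.4 CPM. Their part in the diet result was not tested.

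Of 34 further genes of sterol metabolism and transport, 1 was higher and none lower on western diet in controls, with log2 differences from -1.92 to 0.96 and 9 at an unadjusted p under 0.05 (15.1% of all genes). This was Lipa, the lysosomal acid lipase that frees cholesterol from its esters, with a log2 difference of 0.46 ± 0.11 (SE; adjusted p = 0.03). In knockouts 1 was higher and 2 were lower, with log2 differences from -1.53 to 0.79 and 12 at an unadjusted p under 0.05 (26.8% of all genes). Soat2, which esterifies cholesterol in hepatocytes, was higher on western diet (log2 difference 0.57 ± 0.13 (SE), adjusted p = 0.014). Dhdds, of dolichol synthesis, and Mbtps1, a Golgi protease that cleaves SREBP2, were lower, by log2 differences of -0.55 (adjusted p = 0.029) and -0.38 (adjusted p = 0.037).

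LXR is the nuclear receptor that responds to sterol excess. Of 8 genes listed for it, its targets and the receptor genes Nr1h3 and Nr1h2, 3 were higher on western diet in controls and none was lower. Abcg5 and Abcg8, which form the pump that sends cholesterol into bile, had log2 differences of 1.43 ± 0.19 (SE; adjusted p = 0.00029) and 0.92 ± 0.13 (SE; adjusted p = 0.00041), and Lpcat3, which remodels phospholipids, had 0.60 ± 0.07 (SE; adjusted p = 0.00012). In knockouts 1 of 8 was higher, Smpdl3a, by 0.47 (adjusted p = 0.041). In the interaction test none of the 8 passed, the nearest being Abcg8 (-0.94 ± 0.19 (SE), adjusted p = 0.13). The LXR list had a median of 0.39 in controls and 0.05 in knockouts, with 3 and 4 of its 8 differences below 0. Of 15 genes of fatty acid synthesis, a pathway run by the related factor SREBP1, 2 were higher on western diet in both genotypes and none lower. Scd1, which desaturates fatty acids, had log2 differences of 4.29 ± 0.71 (SE; adjusted p = 0.0042) in controls and 2.83 ± 0.68 (SE; adjusted p = 0.024) in knockouts, and Elovl5, which lengthens them, had 1.32 (adjusted p = 0.0005) and 1.06 (adjusted p = 0.0076). The median of that list was 0.27 in controls and -0.06 in knockouts.

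Few of these genes were called between Plvap knockouts and controls, which does not show that the others were unchanged. On western diet no member was called, where 2 of 13533 genes were (0.0148%). At an unadjusted p under 0.05 there were 4 members, against 9.79% of all genes, and DESeq2 called no member among 21 genes (0.123%). The 3 members with the smallest p did not pass. Sc5d was the nearest, with 216, 200, 211, 206 and 215 CPM in controls and 249, 340, 245 and 263 CPM in knockouts, which do not overlap (log2 difference 0.38, adjusted p = 0.31). Stard4 had 0.81 (adjusted p = 0.45) and Lbr 0.38 (adjusted p = 0.45).

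On high-fat diet 1 member was higher in knockouts and none was lower, against 0.2% of all genes higher and 0.0813% lower. That gene was Scap (chr9:110162356-110214018, GRCm39, plus strand), which in controls stood at 92.0, 81.8, 91.2, 76.8 and 75.7 CPM, below all the knockouts given above. The log2 difference was 0.51 ± 0.09 (SE; adjusted p = 0.016). Scap shares 985 exon bases with a gene on the other strand, which has 0.107% of its counts. The call was lost without high-fat control B, D or E, without high-fat knockout B or E, and when only the 2 groups were fitted. Npc1 had 0.60 (adjusted p = 0.077) and Lbr -0.41 (adjusted p = 0.22). At an unadjusted p under 0.05 there were 7 members, against 13.8% of all genes, and DESeq2 called 2, Scap and Npc1, among 244 genes (1.88%). Knockout E stood apart for the synthesis genes. Hmgcs1 stood at 62.3, 34.4, 37.8, 47.4 and 152 CPM in knockouts and at 133, 111, 170, 161 and 61.1 CPM in controls, so that 4 of 5 knockouts were below 4 of 5 controls (log2 difference -0.93 ± 0.36 (SE), adjusted p = 0.25). Without knockout E, Hmgcs1 and Fdps were called lower and Scap was not called. The median log2 difference of the 28 members was -0.08, and of all genes 0.0089. Of the 8 LXR genes 1 was higher in knockouts, Lpcat3 (log2 difference 0.43 ± 0.07 (SE), adjusted p = 0.013), and none was lower. No gene of the further pathway or fatty acid lists was called.

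In fasted chow livers no member was called, where 2.25% of 12840 genes were. At an unadjusted p under 0.05 there were 3 members, against 17.6% of all genes, and DESeq2 called 1, Hsd17b7, among 713 genes (5.48%). Hsd17b7, the sterol ketoreductase, was nearest, with 45.4 to 69.7 CPM (median 50.7) in knockouts and 67 to 115 CPM (median 72.1) in controls, ranges that overlap slightly (log2 difference -0.52 ± 0.15 (SE), adjusted p = 0.075). Npc1 had -0.25 (adjusted p = 0.14) and Tm7sf2 0.29 (adjusted p = 0.16). The knockouts were split among themselves. Sqle, for example, stood at 59, 62.3, 11.3, 17.1 and 41.9 CPM in knockouts A to E, and at 14.5 to 67.6 CPM (median 28.5) in the 6 controls, where control D was highest for 22 of 28 members. Among the 34 further pathway genes 1 was lower, Insig2, the second Insig protein, with a log2 difference of -0.79 ± 0.17 (SE; adjusted p = 0.033). Of the fatty acid list, Elovl5 and Acacb were lower, by -0.84 (adjusted p = 0.0057) and -0.74 (adjusted p = 0.035).

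In refed livers no member was called, where 3 of 13228 genes were (0.0227%), although 25 of 28 differences were above 0. The median log2 difference was 0.38, against 0.0077 over all genes. At an unadjusted p under 0.05 there were 3 members, against 7.74% of all genes, and DESeq2 called no member among 59 genes (0.461%). Replicate letters were taken as pairs here on the letters and a correlation check alone, and the main test did not use them. With the letter as a block 30 genes were called (0.227%), and none was a member. Sc5d had 0.49 (adjusted p = 0.53), Lbr 0.38 (adjusted p = 0.59) and Insig1 0.57 (adjusted p = 0.6). Refed livers varied widely: Mvd stood at 31.6, 53.9, 69.3 and 73.1 CPM in controls and at 106, 91.4, 104 and 30.3 CPM in knockouts. Control A was lowest of its group for 24 of 28 members and knockout D for 22.

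In the Cav1 experiment 2 members were higher in knockouts and none was lower, where 2.57% of 12978 genes were higher and 2.11% lower. The median log2 difference was 0.15 (all genes 0.024), and 4 members lay above wild type without overlap (background 6.12%). Sqle stood at 38.5, 29.0, 43.0 and 41.9 CPM in wild types and at 117, 90.3, 70.4 and 56.0 CPM in knockouts, a log2 difference of 1.14 ± 0.23 (SE; adjusted p = 0.023). Mvk stood at 17.1, 13.8, 19.0 and 16.9 CPM in wild types and at 36.4, 32.1, 24 and 23.1 CPM in knockouts, a log2 difference of 0.81 ± 0.16 (SE; adjusted p = 0.018). Neither gene overlapped between the groups.

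Msmo1 (0.79, adjusted p = 0.071) and Cyp51 (0.58, adjusted p = 0.078) also lay above wild type without overlap and did not pass. Neither Sqle nor Mvk was called without wild type A, B or D, Sqle was not called without wild type C or knockout B, and 6 members were called without knockout C. With the replicate letter as a block Mvk alone was called. Of the 34 further pathway genes, Insig2 and Scarb1, the receptor that takes cholesterol from high-density lipoprotein, were higher (log2 differences 0.74 ± 0.14 and 0.46 ± 0.10 (SE), adjusted p = 0.012 and 0.03), and Aacs, which activates acetoacetate for lipid synthesis, was lower (-1.07 ± 0.20 (SE), adjusted p = 0.014). No gene of the fatty acid or LXR lists was called. The experiment cannot tell genotype and stock apart.

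**Figure D5:**
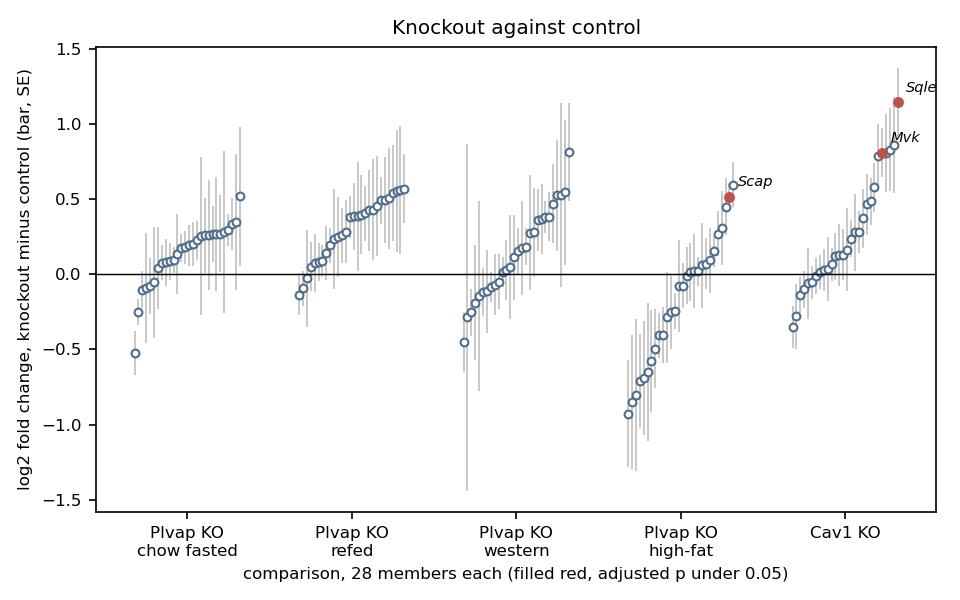
Log2 fold change of knockout minus control or wild type (y axis, bars are SE) for the 28 tested members in each of 5 comparisons (x axis), sorted within each; filled red points passed an adjusted p under 0.05. Only Scap on high-fat diet and Mvk and Sqle in the Cav1 experiment are filled.

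Marker lists also moved with the knockouts. The summed CPM of 5 hepatocyte markers was higher without overlap in the knockouts of all 5 comparisons, for example 67554 to 91050 in high-fat knockouts against 39318 to 45206 in high-fat controls. The sum weights abundant genes most, and the markers did not all go that way. On western diet 3 of the 5 had a log2 difference below 0, with a median of -0.07, and in each other comparison 1 of 5 did. Alb was called higher on chow, on high-fat diet and in the Cav1 experiment, where Fgb was called too. The enterocyte list, with 1 of 4 genes tested and Alpi at 0 in these groups, ran lower without overlap in the knockouts on chow, at 59.7 to 160 CPM against 191 to 254 CPM, with Fabp2 called, and on high-fat diet, at 112 to 192 CPM against 219 to 343 CPM, with no gene called. In the Cav1 experiment the 5 endothelial markers summed to 111 to 163 CPM in knockouts and 164 to 181 CPM in wild types, and 1 of them, Clec4g, was called lower. The part of these markers in the knockout results was not tested. Log2 differences also ran with gene length across all genes, with a Spearman coefficient of 0.27 in the refed and -0.29 in the Cav1 comparison, given without a test.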

How the data were processed

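Whole-liver RNA of 46 male mice was sequenced; the labels name the NEBNext Ultra RNA kit for the libraries. The submitters' processing notes name STAR 2.7.8a, featureCounts 2.0, FastQC 0.11.9, MultiQC 1.10.1 and the build GRCm39. The authors deposited raw counts per Ensembl gene in 4 tables, without normalization, with each gene's summed exon length in bases beside them, per the file headers. The annotation release and the counting strand are not given in the sources used here. Symbols were matched for 52083 of 55416 genes (93.99%). Depth ran from 6656342 to 23311539 counts, and counting error is only part of the spread between livers.

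Groups follow the labels; where the free-text protocol and the characteristics differ on fasting, the characteristics were used. Each comparison was fitted across all genes with edgeR 4.0.16 (R 4.3.3; TMM, filterByExpr with a minimum count of 10 and a minimum total of 15, quasi-likelihood F-test) and called at an adjusted p under 0.05 (Benjamini-Hochberg). The 4 diet groups shared 1 fit, and the chow, refed and Cav1 tables were fitted on their own. SE is the absolute log2 difference divided by the square root of F. The script was tested on simulated data. Alternatives used DESeq2 1.42.0, limma 3.58.1 (voom with quality weights), other size factors and filters, removal of the trend with gene length, only the compared groups, a replicate block, and each library left out. Replicate letters were taken as pairs only in the refed experiment, where the correlation of same-lettered deviations ran from 0.207 to 0.249 over 4 pairs, all above 0.1; the pairing comes from the labels' letters and this check.

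Members, lists and motifs were chosen with earlier results of these data known. All called members are named, up to 8 per comparison by smallest p with values in every library; where under 3 were called, the 3 smallest p are given; other lists name up to 4 called genes. Hmgcs1 in high-fat livers, and Sqle on chow and Mvd after refeeding as examples, were chosen after their values were seen. Promoters come from RefSeq on GRCm38.p6.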

Additional observations from a re-analysis of the deposited data

Results flagged for a closer look

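Within each group of 4 to 6 livers, single values were checked for standing apart by Dixon's test at the 95% level. Of 280 combinations of member and group, 36 (12.9%) held such a value, where chance gives about 1 in 20. The members rise and fall together within a group, so these are not 36 separate events.

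High-fat knockout E was above the other 4 high-fat knockouts for these members. Hmgcs1 stood at 152 CPM against 34.4 to 62.3 in the others. Mvk had 18.8 CPM where the others had 7.29 to 9.79. For Mvd it was 14.5 CPM, and 2.43 to 4.41 elsewhere. Fdps stood at 22.1 CPM against 3.02 to 7.65 in the others. Sqle had 66.5 CPM where the others had 8.24 to 16.6. For Msmo1 it was 137 CPM, and 29.8 to 54.7 elsewhere. Nsdhl stood at 33.6 CPM against 10.4 to 13.2 in the others. Dhcr7 had 45.1 CPM where the others had 17.8 to 22. For Insig1 it was 124 CPM, and 50.5 to 70.6 elsewhere. Srebf2 stood at 56.9 CPM against 29.2 to 34.1 in the others. Rdh11 had 18.2 CPM where the others had 8.61 to 10.2. For Cyb5r3 it was 441 CPM, and 209 to 267 elsewhere.

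Chow control D was above the other 5 fasted chow controls for another set. Hmgcs1 stood at 206 CPM against 88.3 to 98.6 in the others. Fdps had 23.4 CPM where the others had 6.33 to 10.8. For Sqle it was 67.6 CPM, and 14.5 to 33.5 elsewhere. Cyp51 stood at 223 CPM against 68.3 to 102 in the others. Msmo1 had 202 CPM where the others had 51.7 to 90.8. For Hsd17b7 it was 115 CPM, and 67 to 75.6 elsewhere. Sc5d stood at 326 CPM against 232 to 265 in the others. Insig1 had 176 CPM where the others had 69.9 to 98.7.

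Western knockout B was above the other 3 western knockouts for the following members. Idi1 stood at 0.476 CPM against 0 to 0.0665 in the others. Fdft1 had 67 CPM where the others had 32.6 to 38.4. For Tm7sf2 it was 87.1 CPM, and 33.9 to 39.4 elsewhere. Msmo1 stood at 19.3 CPM against 12.8 to 13.6 in the others. Npc1 had 87.8 CPM where the others had 59.9 to 62.1. For Cyb5r3 it was 303 CPM, and 171 to 182 elsewhere.

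Values in other libraries were fewer. Pmvk was lowest in wild type of the Cav1 experiment B, at 27.5 CPM against 40.9 to 43 in its group. Sqle was lowest in high-fat control E, at 12.4 CPM against 43.3 to 48.8 in its group. Cyp51 was highest in western knockout D, at 33.7 CPM against 17.8 to 19.4 in its group. Cyp51 was lowest in high-fat control E, at 78.7 CPM against 135 to 155 in its group. Ebp was lowest in refed knockout B, at 170 CPM against 197 to 202 in its group. Dhcr7 was highest in western control A, at 17.7 CPM against 7.47 to 10.2 in its group. Dhcr7 was lowest in western knockout D, at 8.87 CPM against 12.9 to 13.6 in its group. Lbr was lowest in western knockout A, at 3.85 CPM against 6.1 to 6.39 in its group. Npc1 was highest in high-fat control A, at 80.4 CPM against 48.6 to 57.7 in its group. Rdh11 was lowest in wild type of the Cav1 experiment B, at 37.5 CPM against 67.7 to 70.9 in its group.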

How the results depend on the processing

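All directions of the called members were kept under the alternatives run, and no result reversed. In controls, the 17 members lower on western diet became 11 with no low-count filter, 12 with the replicate block, 18 with limma-voom and 19 with DESeq2, and 10 to 15 when single livers were left out, with 0 to 1 higher (Npc1, without high-fat control A). In knockouts, the 14 lower members became 8 with the replicate block and 9 when only the 2 groups were fitted, and 7 to 15 when single livers were left out, with 0 to 1 higher. Ggps1 was called higher there, making 1, with DESeq2, with DESeq2 size factors, with a filter at 1 CPM and with the length trend removed. The interaction gave 1 lower member (Scap) with DESeq2. For the knockout on high-fat diet, the 1 higher member became 2 (Scap and Npc1) with DESeq2, with no filter, with limma-voom and with the length trend removed, and 0 when only the 2 groups were fitted; limma-voom also called 1 lower member, Hmgcs1. Leaving out single livers gave 0 to 2 higher and 0 to 2 lower. On chow, Hsd17b7 was 1 lower member with DESeq2 and with no filter, and leaving out single livers gave 0 to 1. In refed livers, Insig1 was 1 higher member with no filter. In the Cav1 experiment the 2 higher members became 6 with DESeq2, 7 with no filter and 1 with the replicate block, and 0 to 6 when single livers were left out; no filter also gave 1 lower member, Npc1. The block changed no call of members on chow, after refeeding, or between genotypes on either diet. Outside the refed experiment the letters were not taken as pairs. On chow, 2 of 5 same-letter pairs correlated above 0.1, the highest at 0.275. There the block raised the number of all genes called from 289 to 713. Apart from the settings that drop livers or genes, the cause of these moves was not tested. Idi1 on western diet, with 0 to 7 reads a liver, is the member whose fold is most limited by depth.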

Other observations

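Levels of different genes were set side by side per kilobase of summed exon length. That length need not be that of the transcripts expressed in liver, so the order is rough. Ebp led the 28 tested members in fasted chow controls at 65.5 ± 8.02 CPM per kb (SD, n = 6), followed by Sc5d at 53.6 ± 7.08 and Cyb5r3 at 44.8 ± 8.52. Idi1 was the lowest at 0.897 ± 0.455, below Lss at 1.20 ± 0.238 and Lbr at 1.40 ± 0.230. The neighbours in this order overlap within their SD.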
